A study of Capra hircus with 9 samples.

Results

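The genes described here are 10 T cell genes of the goat: the subunits of the CD3 complex (CD3D, CD3E, CD3G and CD247), the coreceptors (CD4, CD8A and CD8B) and 3 genes used in or marking immature T cells of the thymus (PTCRA, CD1E and THEMIS). They were chosen by name, with earlier results of these data known. All rows of the expression table that carry one of these symbols were summed, so that 10 of 21661 genes are described. RNA-seq was done on submandibular glands, which are salivary glands, of female Lubo goats killed at 1 month (group A), 12 months (group B) or 24 months (group C) of age, with 3 goats and 3 libraries per age. The labels name no treatment or genotype, age is the only difference they give between groups, and each goat was sampled once. Total RNA of the tissue was sequenced and ribosomal RNA reads were removed afterwards. The libraries hold RNA from every cell type in the piece of tissue taken.

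A T cell reads antigen with a T cell receptor that reaches the surface only together with the CD3 chains. CD3D, CD3E and CD3G pair with each other, CD247 encodes the zeta chain, and the tails of all these chains are phosphorylated when the receptor is engaged. CD4 and CD8 are coreceptors that bind MHC class II and MHC class I. In the thymus, T cell precursors first carry a pre-receptor containing the PTCRA chain, then express CD4 and CD8 together, and keep 1 of them as mature cells. Mature T cells outside the thymus express CD3 and a coreceptor, whereas PTCRA is shut off after the pre-receptor stage. CD1E belongs to the CD1 family of lipid antigen-presenting proteins, several of which are expressed by cortical thymocytes and by dendritic cells. THEMIS is an adaptor of T cell receptor signalling that is most abundant in developing T cells.

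The counts recovered per library ranged from 2.01e+07 to 2.63e+07, and 3 counts, the smallest number treated as a signal here, corresponded to 0.0836 to 0.174 CPM (counts as a share of library size, with library sizes scaled by TMM). Intervals and floors drawn from counts cover counting error only. One library stood apart. In 1-month replicate 2 the 9 genes of a salivary acinar and duct list summed to 194 CPM, against 2781 and 2329 CPM in the other 1-month libraries, 23005 to 30741 CPM at 12 months and 20337 to 35539 CPM at 24 months. The water channel gene AQP5 was at 0.495 CPM there and at 129 CPM or more in each other library, and the immunoglobulin transporter gene PIGR was at 4.74 CPM, against at least 833 CPM elsewhere. KRT19, a duct keratin gene, was an exception at 123 CPM, within the range of the other libraries (87.7 to 318 CPM). The salivary markers that define the labelled tissue were therefore near absent in this library, and the changes of the 10 genes and the counts of the marker lists are given below with and without it.

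**Figure D1:**
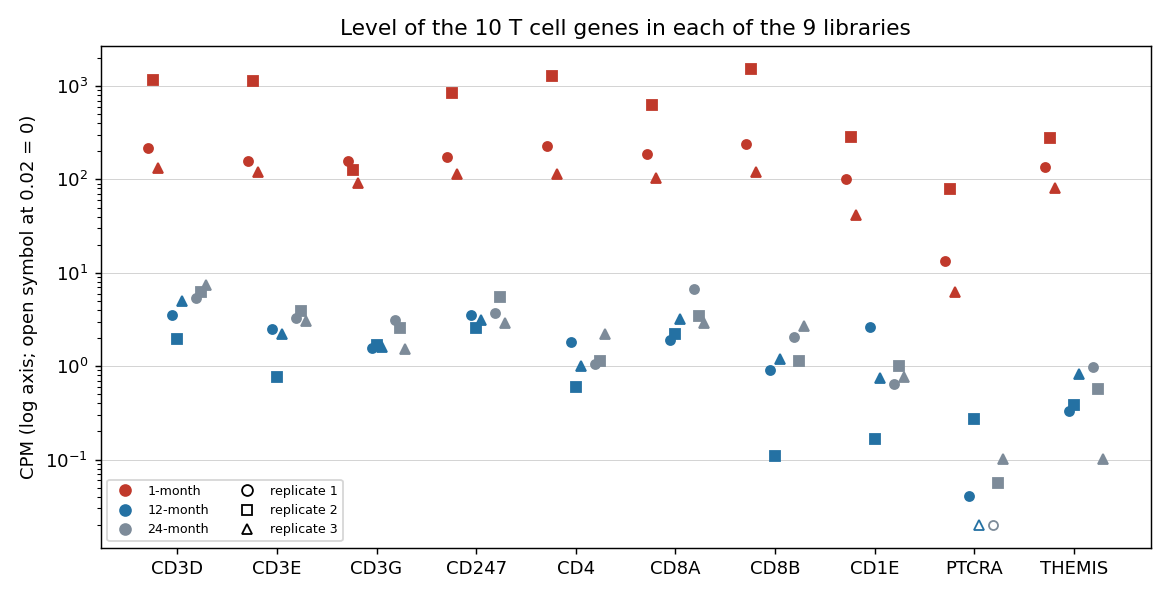
CPM of each of the 10 T cell genes (log axis) in the 9 libraries, with colour for age and symbol for replicate; open symbols stand for 0 counts. Every 1-month value lies above every older value of its gene, and 1-month replicate 2 is the highest for all genes but CD3G.

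The 3 CD3 chains encoded next to each other were abundant in every 1-month gland and scarce in every older one. CD3D was at 214, 1163 and 133 CPM in 1-month replicates 1, 2 and 3, at 3.50, 1.98 and 4.94 CPM at 12 months and at 5.40, 6.26 and 7.34 CPM at 24 months. CD3E, the chain used below as the reference for ratios, was at 159, 1121 and 120 CPM at 1 month, at 2.47, 0.769 and 2.23 CPM at 12 months and at 3.31, 3.95 and 3.08 CPM at 24 months. For both genes replicate 2 was the high library of the 1-month group, and the lowest 1-month value exceeded the highest older value at least 18.2-fold. CD3G did not share the peak in replicate 2: its 1-month values were 158, 125 and 91.4 CPM, the closest to each other of the 10 genes' values at this age. At 12 months CD3G was at 1.57, 1.70 and 1.62 CPM and at 24 months at 3.14, 2.54 and 1.54 CPM, again with no overlap with the 1-month libraries. By edgeR's quasi-likelihood test with Benjamini-Hochberg adjustment over all genes tested, CD3D fell by 7.17 ± 1.11 (log2, standard error; adjusted p = 0.0123) from 1 to 12 months, CD3E fell by 7.98 ± 1.26 (adjusted p = 0.0125) and CD3G fell by 6.21 ± 0.35 (adjusted p = 0.00605). Against 24 months the log2 changes were -6.25 ± 0.99 (adjusted p = 0.00806), -7.02 ± 1.08 (adjusted p = 0.00784) and -5.61 ± 0.49 (adjusted p = 0.00213). Without 1-month replicate 2 the changes of CD3D, CD3E and CD3G were -5.63, -6.22 and -6.25 at 12 months and -4.69, -5.25 and -5.61 at 24 months, so that CD3G no longer had the smallest fall. A smaller number of T cells, less RNA per T cell and a difference in the tissue taken cannot be told apart in these libraries. This holds here and for every gene below.

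CD247 followed CD3D and CD3E. The zeta chain gene was at 176, 850 and 115 CPM at 1 month, at 3.55, 2.58 and 3.15 CPM at 12 months and at 3.72, 5.52 and 2.87 CPM at 24 months. It fell by 6.93 ± 0.98 (log2; edgeR quasi-likelihood test, adjusted p = 0.0107) to 12 months, and the log2 change to 24 months was -6.49 ± 0.96 (adjusted p = 0.00735), with no overlap of the older groups with the 1-month libraries. In mean CPM this was 123-fold and 94.2-fold, and 47.1-fold and 36.1-fold without 1-month replicate 2, where the log2 changes were -5.54 and -5.08. Both of its annotated transcripts were present at 1 month, XM_013975200.2 with 73.5% and XM_018046444.1 with 26.5% of the gene's summed value.

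The coreceptor genes were likewise far lower in the older glands, with larger fitted falls for CD4 and CD8B than for CD8A. CD4 was at 231, 1292 and 115 CPM at 1 month, at 1.81, 0.604 and 1.00 CPM at 12 months and at 1.05, 1.13 and 2.21 CPM at 24 months. CD8A, which pairs with itself or with CD8B, was at 188, 622 and 102 CPM at 1 month, at 1.90, 2.198 and 3.19 CPM at 12 months and at 6.68, 3.44 and 2.87 CPM at 24 months. CD8B, whose product needs CD8A to form the heterodimer typical of thymus-derived CD8 T cells, was at 238, 1532 and 119 CPM at 1 month, at 0.907, 0.110 and 1.18 CPM at 12 months and at 2.03, 1.13 and 2.67 CPM at 24 months. No older library reached a 1-month library for any coreceptor gene, and the lowest 1-month CD8B value was 101-fold the highest 12-month value. One 12-month library, replicate 2, held only 2 CD8B counts, which is under the floor, and 11 CD4 counts. From 1 to 12 months CD4 fell by 8.88 ± 1.29 (log2; edgeR quasi-likelihood test, adjusted p = 0.0111), CD8A fell by 6.95 ± 0.88 (adjusted p = 0.00851) and CD8B fell by 9.71 ± 1.56 (adjusted p = 0.0131). From 1 to 24 months the log2 changes were -8.48 ± 1.196 (adjusted p = 0.00638), -6.09 ± 0.86 (adjusted p = 0.00656) and -8.29 ± 1.24 (adjusted p = 0.00744). With 1-month replicate 2 left out, CD4, CD8A and CD8B changed by -7.20, -5.89 and -7.86 at 12 months and by -6.79, -4.98 and -6.43 at 24 months.

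The stage genes were also high at 1 month and low later, and PTCRA was at or near the counting floor in the older glands. PTCRA, the invariant chain of the pre-receptor, had 362, 2227 and 224 counts at 1 month (13.4, 78.8 and 6.25 CPM), then 1, 5 and 0 counts at 12 months and 0, 1 and 2 counts at 24 months. All 24-month libraries and all 12-month libraries but replicate 2 were thus at or below 3 counts, and 2 of the older libraries held no PTCRA count. PTCRA fell by 8.35 ± 1.54 (log2; edgeR quasi-likelihood test, adjusted p = 0.0173) to 12 months. The 24-month comparison was also called (adjusted p = 0.00793), and in mean CPM PTCRA was at least 198-fold lower at 24 months, counting each 24-month library at its floor of 3 counts. That bound falls to 59.3-fold without 1-month replicate 2, and the change to 12 months becomes -6.61. CD1E was at 102, 284 and 41.7 CPM at 1 month, at 2.60, 0.165 and 0.743 CPM at 12 months and at 0.639, 1.01 and 0.770 CPM at 24 months. Its 12-month libraries ranged from 3 counts in replicate 2 to 63 in replicate 1, a wider spread than at 24 months, but all lay below the 1-month libraries. Reads of closely related CD1 family genes may have been divided among them by the authors' estimation, so the CD1E level is less certain. CD1E fell by 6.89 ± 1.24 (adjusted p = 0.0164) to 12 months and the change to 24 months was -7.38 ± 0.88 (adjusted p = 0.00413) by the same test. THEMIS was at 136, 277 and 81.3 CPM at 1 month, at 0.330, 0.385 and 0.830 CPM at 12 months and at 0.987, 0.564 and 0.103 CPM at 24 months, where replicate 3 held 2 counts. It fell by 8.28 ± 0.76 (adjusted p = 0.00631) to 12 months, and the change to 24 months was -8.17 ± 0.94 (adjusted p = 0.00362). Leaving out 1-month replicate 2 gave -5.87 and -6.37 for CD1E and -7.69 and -7.55 for THEMIS.

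Over the 10 genes, all 10 passed the filter on low counts in both comparisons with the 1-month group, and all 10 were called lower in the older group, that is at an adjusted p under 0.05 and a log2 fold change below -2. Of all genes tested, 9.46% were called lower at 12 months than at 1 month (1440 of 15221) and 9.1% lower at 24 months (1364 of 14986). All 10 also had no overlap between the 1-month and the older libraries, a pattern shown in that direction by 27.1% of genes tested against 12 months and 23.6% against 24 months. The median log2 fold change of the 10 genes was -7.57 at 12 months and -7.20 at 24 months, against -0.04 over all genes tested in each comparison. The comparisons share the 1-month libraries, so they do not count as separate evidence. Because the 10 genes were chosen with earlier results of these data known, the shares of all genes are context and not a test of the set. Together the 10 genes took 0.217%, 0.796% and 0.126% of all counts in 1-month replicates 1, 2 and 3, and 0.000934% to 0.00221% in the older libraries. Without 1-month replicate 2 all 10 were still called in both comparisons, with log2 changes of -7.86 to -5.54 at 12 months and -7.55 to -4.69 at 24 months. The calls depended more on single older libraries: none of the 10 was called without 12-month replicate 1, 1 without replicate 2 and 2 without replicate 3, while all genes called in those fits numbered 0, 61 and 110. The median log2 change of the 10 genes in those fits was -7.98, -7.24 and -7.63, close to that with all libraries, and the lowest adjusted p of the 10 was 0.0524 without replicate 1. Leaving out 24-month replicate 3 left 3 of the 10 called with a median of -7.14, and all fitted changes stayed negative in each of these fits.

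**Figure D2:**
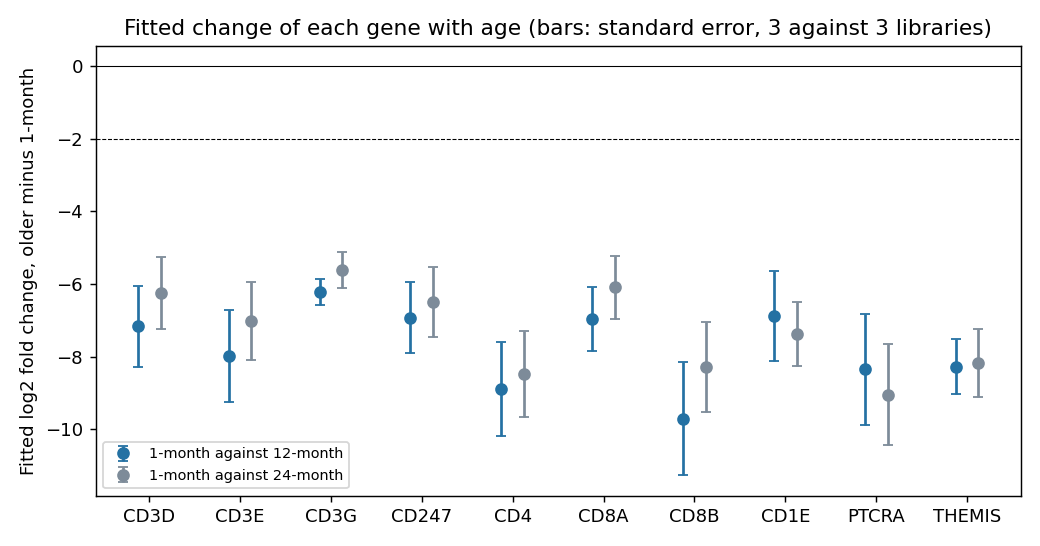
Fitted log2 fold change (older minus 1-month) of each gene with its standard error, from 3 against 3 libraries; the dashed line marks the threshold of -2. All values lie between -9.71 and -5.61, and CD3G has the smallest fall in both comparisons with all libraries.

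The 12-month and 24-month glands were then compared. None of the 9 genes that passed the filter was called, and neither was any of the 14291 genes tested (0%), although 1555 of these (10.9%) had an unadjusted p under 0.05 in edgeR's quasi-likelihood test. DESeq2's Wald test called 13 genes and edgeR's exact test 16, none of them among the 10. Fitted levels were higher at 24 months for 8 of the 9, from 0.12 ± 0.82 (log2) for THEMIS to 1.42 ± 0.74 for CD8B (adjusted p = 0.431), and lower for CD1E at -0.49 ± 0.83 (adjusted p = 0.753). CD3D gave the smallest unadjusted p of the 9, 0.0489, with a log2 change of 0.90 ± 0.40 and an adjusted p of 0.431. CD3D and CD3E were the 2 genes whose 24-month libraries all lay above the 12-month ones, a pattern found in that direction in 7.82% of genes tested. None of these differences passed the test after adjustment, and PTCRA, at or near the floor in both groups, could not be compared.

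**Figure D3:**
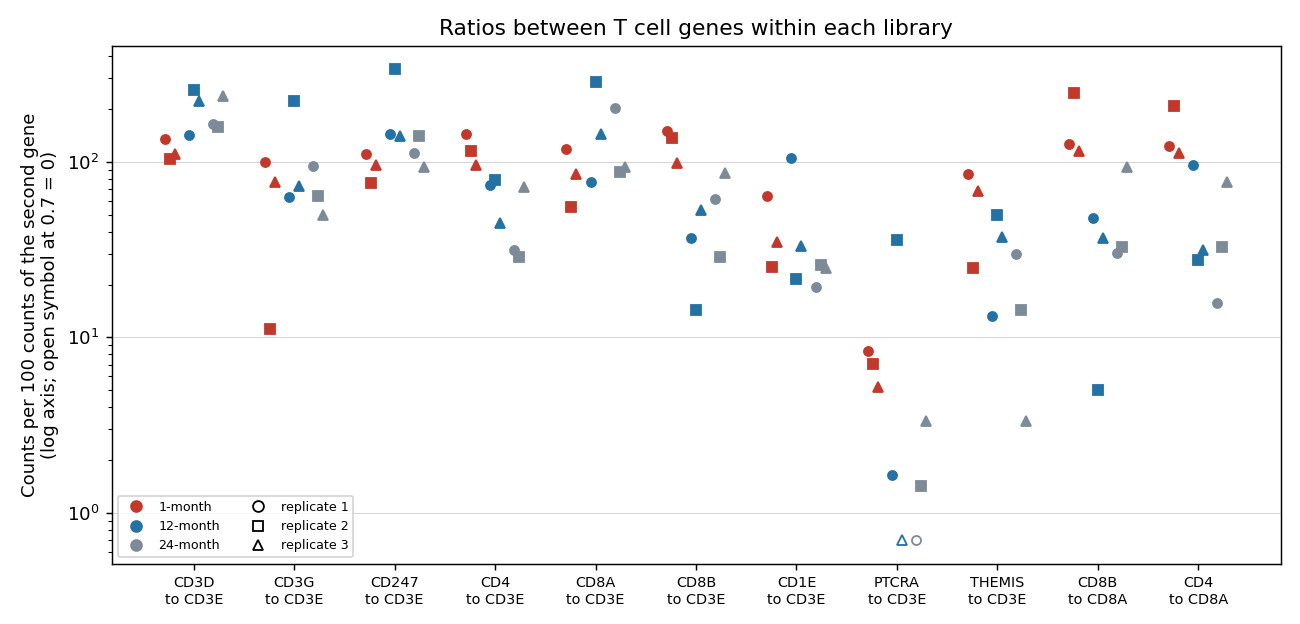
Counts of one T cell gene per 100 counts of another (log axis) within each library, for the 9 ratios to CD3E and the ratios of CD8B and CD4 to CD8A; open symbols stand for 0. The 1-month libraries lie apart from all older ones for CD3D, CD4 and CD8B to CD3E and for both ratios to CD8A.

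To ask whether immature and mature T cell genes changed in proportion, each gene was set against CD3E within each library, which removes depth and normalization. A total of 11 ratios were compared in 4 contrasts by two-sided exact permutation tests, and none of the 44 tests passed after adjustment (smallest adjusted p = 0.210). The smallest p that 3 against 3 libraries can give is 0.1, and that of 3 against 6 libraries is 0.0238. With these minima no adjusted p of the 44 tests could fall under 0.05, whatever the values. The lack of a pass therefore carries no information. PTCRA stood at 8.42, 7.03 and 5.21 counts per 100 CD3E counts at 1 month, at 1.66, 35.7 and 0 at 12 months and at 0, 1.43 and 3.33 at 24 months. The older values rest on 0 to 5 PTCRA counts per library and span the 1-month values (difference in mean log2 ratio -1.18, exact permutation p = 0.381). CD1E per 100 CD3E counts was 63.8, 25.3 and 34.8 at 1 month, 105, 21.4 and 33.3 at 12 months and 19.3, 25.7 and 25 at 24 months, so the ages overlapped (-0.24, exact permutation p = 0.690). THEMIS gave 85.6, 24.7 and 67.9 at 1 month, 13.3, 50.04 and 37.3 at 12 months and 29.8, 14.3 and 3.33 at 24 months, also with overlap (-1.44, exact permutation p = 0.119). No difference in the proportion of the 3 stage genes to CD3E was thus detectable with these libraries, which does not show that the proportion was kept.

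The other comparisons gave 5 ratios that separated the 1-month libraries from all 6 older ones, each at the smallest exact permutation p of 0.0238 and an adjusted p of 0.210. How often ratios of other genes separate these libraries was not computed, so it is not known whether 5 is many. The 5 share CD4, CD8B, CD3E and CD8A among them and are not separate results. CD8B per 100 CD8A counts was 126, 246 and 116 at 1 month, 47.8, 5.01 and 37.0 at 12 months and 30.4, 32.8 and 92.9 at 24 months, a mean log2 ratio lower by 2.26 in the older glands. Every older gland therefore had fewer CD8B than CD8A counts and every 1-month gland had more. This rests on the new CD8A transcript described below: with known transcripts only, CD8A had 0 counts in 3 older libraries that held CD8B counts, and the differences for CD8B and CD4 to CD8A were -0.95 (exact permutation p = 0.714) and -0.54 (exact permutation p = 0.833). CD4 per 100 CD8A counts was 122, 208 and 112 at 1 month and 15.6 to 95.6 in the older libraries, a log2 difference of -1.86. Relative to CD3E, CD4 was lower by 1.19 and CD8B lower by 1.60 on the log2 scale in the older glands, whereas CD3D was higher by 0.72. When 1-month replicate 2 was left out, the log2 differences were -1.92 for CD8B and -1.58 for CD4 to CD8A, and the smallest exact permutation p was then 0.0714. Leaving out a library cannot make groups overlap that did not, so the lack of overlap in that setting carries no information. CD8A per 100 CD3E counts (118, 55.5 and 85.5 at 1 month, 76.7 to 286 later) and CD247 per 100 CD3E counts (110, 75.8 and 96.3 at 1 month, 93.3 to 336 later) overlapped between ages. CD3G per 100 CD3E counts was 99.3 and 76.3 in 1-month replicates 1 and 3 but 11.1 in replicate 2, below all other libraries, which ranged from 50 to 221.

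The 1-month libraries differed from each other more than the older ones in absolute level. Replicate 2 was the highest library for 9 of the 10 genes, between 2.03-fold (THEMIS) and 7.03-fold (CD3E) above replicate 1, and held 73.4% of the 10 genes' summed CPM over all 9 libraries. Replicate 3 was the lowest 1-month library for all 10. CD3G alone was lower in replicate 2 than in replicate 1, at 0.790 of its level. A few other T cell genes shared this: TRAT1, a transmembrane adaptor of the receptor complex, was at 22.3, 11.5 and 20.2 CPM and IL7R, the interleukin-7 receptor gene, at 64.5, 49.4 and 67.9 CPM at 1 month. The recombination genes RAG1 and RAG2 were unequally raised in replicate 2, RAG1 with 1516, 4252 and 653 CPM and RAG2 with 247, 289 and 113 CPM. Of the cell cycle genes, MKI67 was at 401, 1876 and 407 CPM and TOP2A at 454, 375 and 316 CPM. The cause of these differences within 1 library was not tested.

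The rows summed for the 10 genes were 17 transcripts, 11 known and 6 new ones assembled by the authors. CD3D, CD3E, CD4, CD8B and CD1E had 1 transcript each. CD8A counts at 1 month were mostly assigned to the new transcript TCONS_00034848 (4419, 14631 and 1897 counts) and less to XM_018055353.1 (663, 2961 and 1776 counts), and in 5 of the 6 older libraries the whole CD8A count stood on only one of these. PTCRA at 1 month was almost all TCONS_00068753 (346, 2091 and 217 counts), which had 0 counts in all 6 older libraries, while the annotated XM_018038665.1 held 16, 136 and 7 counts at 1 month and all PTCRA counts of the older glands. THEMIS was spread over 4 transcripts, and its annotated XM_005684724.2 had 1646, 2240 and 1484 counts at 1 month, 4, 4 and 2 at 12 months and 0 in each 24-month library. Tested as transcripts, all 15 that passed the filter were lower at both older ages, and 10 and 9 of them were called. Without the new transcripts CD8A was no longer called (8 genes called in each comparison) and PTCRA did not pass the filter.

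Other genes of developing and mature T cells were read from the same fits. Of 17 further thymocyte stage genes, 13 were called lower at 12 months and 15 at 24 months, and none higher, with a median log2 change of -7.17 and -6.95. RAG1, which cuts receptor genes for rearrangement, went from 40919, 120228 and 23434 counts at 1 month to 1, 1 and 6 at 12 months and 14, 3 and 5 at 24 months. DNTT, the polymerase that adds bases at the rearranged joints, went from 4378, 4472 and 2413 counts to 2, 0 and 0 and to 3, 2 and 4. The chemokine receptor gene CCR9 went from 6513, 39032 and 4086 counts to 4, 5 and 3 and to 7, 1 and 1. SATB1, a chromatin organizer, was not called at either age and was at 342 to 794 CPM in the older glands. Without 1-month replicate 2, 12 and 11 of the 17 were called.

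Of 10 genes typical of mature and recirculating T cells, 7 were called lower at each older age, with a median log2 change of -3.96 and -4.71. CCR7, which guides cells into lymph nodes, fell by 8.61 ± 1.07 (log2; edgeR quasi-likelihood test, adjusted p = 0.00842) to 12 months. KLF2 and S1PR1, both needed for exit from the thymus, were not called (log2 -1.40 and -0.97 at 12 months), and the adhesion gene CD44, which many cell types express, was at 0.46 ± 0.35. The counts were also 7 and 7 without 1-month replicate 2. All 20 genes of T cell receptor signalling and the T cell surface were called lower at both ages, with no overlap with the 1-month group and a median of -6.66 and -5.64. They include TRAC, the constant region of the receptor alpha chain (-6.83 and -5.48), the kinase genes LCK (-8.18 and -6.87) and ZAP70 (-6.63 and -5.79) and the scaffold gene LAT (-8.19 and -6.46). Without 1-month replicate 2, 19 of the 20 were called at each age. As for the 10 genes, the calls depended more on single older libraries. At 12 months 0, 0 and 4 of the 20 were called without 12-month replicates 1, 2 and 3. At 24 months 11 were called without 24-month replicate 3. Among 13 cytotoxic T and NK cell genes, 9 of 13 tested were called lower at 12 months and 3 of 11 tested at 24 months, and 10 and 5 of 13 without 1-month replicate 2. CCL5, a chemokine of effector T cells, was at 5.22, 6.40 and 5.58 CPM at 1 month, at 0.495, 0.330 and 0.612 CPM at 12 months and at 2.44, 2.37 and 4.36 CPM at 24 months. It was called at 12 months (-3.52 ± 0.46, adjusted p = 0.00915) and not at 24 months (-0.81 ± 0.50, adjusted p = 0.282), and edgeR's quasi-likelihood test called no cytotoxic gene between 12 and 24 months (CCL5 2.69 ± 0.54, adjusted p = 0.431). DESeq2's Wald test, edgeR's exact test and the quasi-likelihood test without 24-month replicate 1 each called CCL5 and PRF1, a pore-forming protein gene, higher at 24 months, CCL5 with an adjusted p of 0.0215, 0.0101 and 0.0126.

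**Figure D4:**
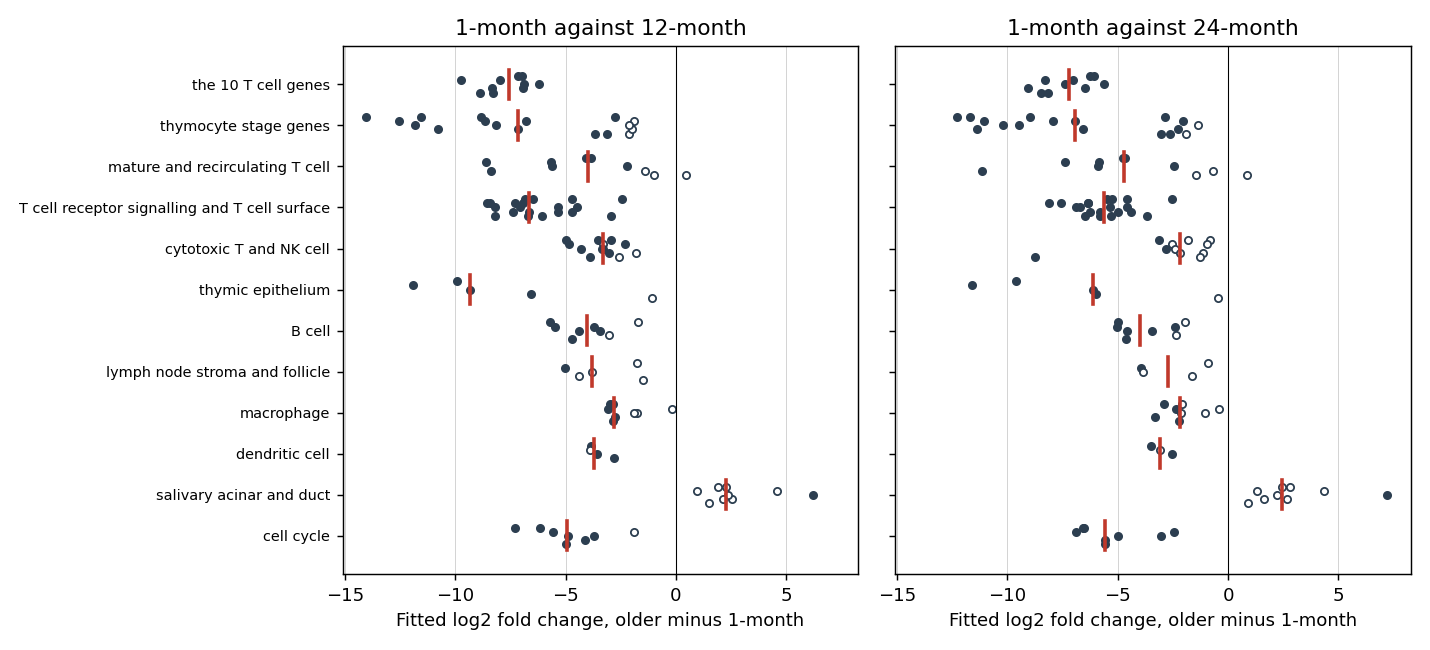
Fitted log2 fold change (older minus 1-month) of each tested gene of the 12 lists; filled points passed the call rule, open points did not, and red bars are list medians. The 10 T cell genes and the T cell receptor list are filled throughout, and the salivary genes lie to the right of 0. Fitted values of genes with no count above the floor in an older group depend on the fit's prior and are not bounds.

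Markers of other cell types moved with the T cell genes, and their part in the result was not tested. The 6 thymic epithelium genes summed to 184, 724 and 79.2 CPM in 1-month replicates 1, 2 and 3, to 6.60 to 7.69 CPM at 12 months and to 7.84 to 12.3 CPM at 24 months, and 4 of the 5 tested were called lower at each age. FOXN1, the factor that defines thymic epithelium, had 424, 2275 and 200 counts at 1 month, 1, 1 and 0 at 12 months and 0, 0 and 2 at 24 months. AIRE, which drives tissue antigens in the thymic medulla, had 9, 61 and 5 counts at 1 month and 0 in all older libraries, and PSMB11, the proteasome subunit of cortical epithelium, was at 0 in all 12-month libraries. The older sums were made up almost wholly of CCL25 and DLL4. The 8 cell cycle genes summed to 981 to 3018 CPM at 1 month, 52.1 to 77.3 CPM at 12 months and 43.0 to 61.2 CPM at 24 months, with 7 and 8 called lower. The 8 B cell genes summed to 56.1 to 321 CPM at 1 month, 13.7 to 15.6 CPM at 12 months and 7.90 to 23.9 CPM at 24 months, with 6 called lower at each age, none at 0 throughout a group, and the B cell receptor gene CD79A giving most of the sum in replicate 2 (263 CPM).

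The order of the 1-month libraries differed between these lists. The 8 macrophage genes found summed to 527, 619 and 1945 CPM at 1 month, 176 to 233 CPM at 12 months and 200 to 309 CPM at 24 months (5 and 4 of 8 called lower), and so were highest in replicate 3, where the T cell genes were lowest. Dendritic cell genes summed to 19.6, 45.8 and 73.9 CPM at 1 month, 4.34 to 5.48 CPM at 12 months and 3.37 to 7.80 CPM at 24 months, with 3 of 4 and 2 of 3 tested called lower. CD207, the Langerhans cell marker, was low at every age, with 3, 15 and 9 counts at 1 month. It had 0, 1 and 0 counts at 12 months and 0 in every 24-month library. Lymph node stroma and follicle genes summed to 78.1, 176 and 251 CPM at 1 month, 19.3 to 33.6 CPM at 12 months and 13.2 to 55.1 CPM at 24 months, with 1 of 5 and 1 of 4 called lower. The complement receptor gene CR2, found on follicular dendritic cells and B cells, was at 46.2, 2.79 and 156 CPM at 1 month, lowest in the library where the T cell genes were highest. The genes of this list did not share 1 order. In 1-month replicate 2 CXCL13 was also lowest (0.283 CPM), CCL19 (52.5 CPM) and FCER2 (75.3 CPM) were highest, and CCL21 lay between. In the opposite direction, 1 of the 9 salivary genes, LPO, the gene of salivary lactoperoxidase, was called by edgeR's quasi-likelihood test, higher at both older ages (6.23 ± 1.15, adjusted p = 0.0172, and 7.20 ± 1.30, adjusted p = 0.0121), where 1.92% and 3.89% of all genes tested were called higher. Salivary genes called higher numbered 3 and 4 by DESeq2's Wald test, 3 and 3 by edgeR's exact test, 2 and 3 with all 9 libraries in 1 fit and 2 and 4 without 1-month replicate 2, and 0 at 12 months without 1-month replicate 3 or any 12-month library and 0 at 24 months without 24-month replicate 3. With 1-month replicate 2 left out, the other lists had, at 12 and 24 months, 4 and 4 thymic epithelium, 7 and 7 cell cycle, 6 and 5 B cell, 6 and 6 macrophage, 4 and 4 dendritic cell and 3 and 3 lymph node stroma and follicle genes called lower. Without 24-month replicate 3 the same lists, in this order, had 1, 4, 0, 0, 0 and 0 genes called lower at 24 months. Without 12-month replicate 1 no gene of any list was called at 12 months.

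**Figure D5:**
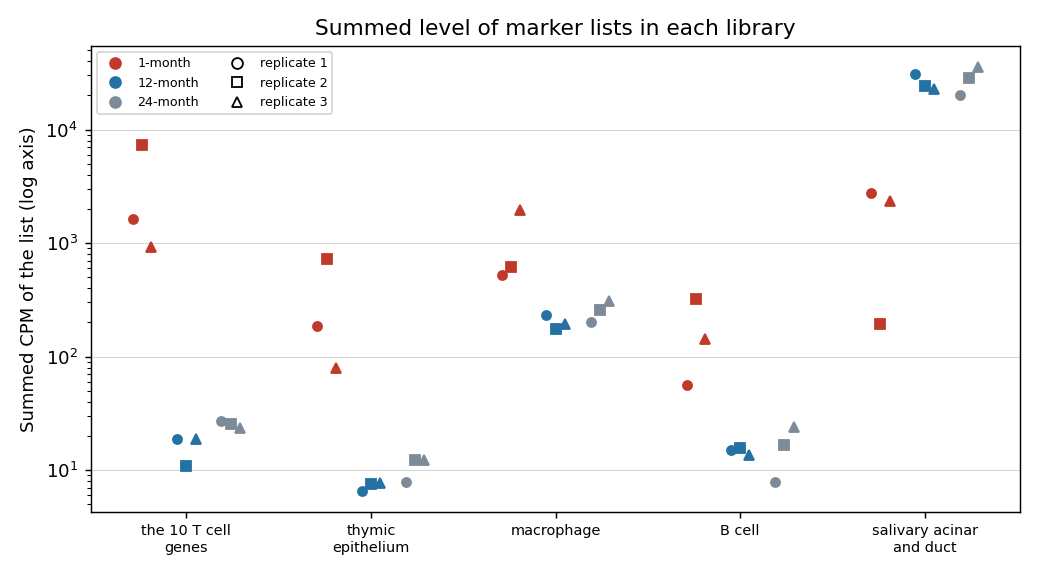
Summed CPM (log axis) of the 10 T cell genes and of 4 marker lists in each of the 9 libraries. In 1-month replicate 2 the T cell and thymic epithelium sums are the highest of all libraries (7344 and 724 CPM) and the salivary sum is the lowest (194 CPM).

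The genes closest to CD3E and to PTCRA in their distribution over the 9 libraries were found by the overlap of profiles, which sums over libraries the smaller of the 2 genes' percent shares. Genes known only by a locus number or a transcript identifier were left out. Among 12878 named genes with a mean of at least 1 CPM, the closest to CD3E were TCF7 (98.4%), SEPT1 (98.0%), TRBV12-3 (97.9%), GPR183 (97.8%) and TRH (97.8%). The median of these named genes was 29.1%. The closest to PTCRA were CCR9 (99.4%), CD8B (98.6%), CD4 (98.6%), TRH (98.3%) and FOXN1 (98.2%), against a median of 27.6%. CD3G shared 53.1% of its profile with CD3E and 52.7% with PTCRA, the lowest overlap of the 10 genes with either. These values are set mainly by the shares of the 1-month libraries, replicate 2 above all, and rest on 9 libraries.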

How the data were processed

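The authors removed ribosomal RNA reads with Bowtie2 2.2.8, aligned reads with TopHat2 2.1.1, assembled transcripts with Cufflinks and estimated expected counts per transcript with RSEM. The genome build is not given in the sources used here. The deposited table holds 52739 transcripts (10053 new) with RSEM expected counts that were multiplied by 1 constant per library, from 0.439 to 1.17. Each constant was read from the steps between low values and divided out, after which 86.2% to 90.4% of gene sums between 0.5 and 400 lay within 0.1 of a whole number, against 17.5% to 38.2% before in 8 libraries. The constant of 24-month replicate 3 was 1. The deposited values had been taken for plain counts when the tests were chosen, and the tests were run on the recovered ones.

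Transcripts were summed per gene symbol. Of 42686 known identifiers 42652 matched the RefSeq goat annotation, used for names and gene order only. ZAP70, TRAT1, FYB1, TRBC, GZMB, CD1A and CD1B were found by product description after the data were seen, and CD163 was not found. The 10 genes, the lists and the tests were chosen with earlier results of these data known. The text names the 10 genes, list genes, and the 5 named genes closest to CD3E and to PTCRA in profile.

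Pairs of ages were compared with edgeR 4.0.16 in R 4.3.3 (rounded counts, filterByExpr, TMM, glmQLFit, glmQLFTest, Benjamini-Hochberg over all genes tested) on the 6 libraries of each pair, without pairing. A call needed an adjusted p under 0.05 together with a log2 change beyond 2 in size, and the study's FPKM threshold was left out for want of transcript lengths. The p-values measure the spread between these goats. Standard errors were not taken from the fit but derived as the size of the log2 change over the square root of the test's F statistic, and are approximate. Ratios had 0.5 added to each count for tests and were compared by exact permutation in scipy 1.17.1. The edgeR and DESeq2 tests were tested on simulated data. Alternatives were DESeq2 1.42.0 (size factors and Wald test), upper-quartile factors, edgeR's exact test, no filter, all 9 libraries in 1 fit, the adjusted p alone, known transcripts only, single transcripts, the replicate number as a block, leaving out each library and, chosen after seeing the data, the deposited values as they stand. Values of some single list genes are not reported here.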

Additional observations from a re-analysis of the deposited data

How the results depend on the processing

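All 10 T cell genes were called lower at 12 and at 24 months under DESeq2's size factors, upper-quartile factors, the exact test of edgeR, the Wald test of DESeq2, no filter, all 9 libraries in 1 fit, the adjusted p alone and the deposited values, and 8 were with known transcripts only. As single transcripts, 7 and 8 of the genes kept a called transcript. Leaving out 1 library in turn gave 0 to 10 called genes against 12 months (0, 1 and 2 without 12-month replicates 1, 2 and 3) and 3 to 10 against 24 months (9 without 24-month replicate 2, when CD3D was lost, and 3 without replicate 3), with every fitted change still negative. Between 12 and 24 months no gene of the 10 was called under any alternative (0 to 0 when leaving out a library).

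Counts over all genes moved more. Against 12 months 1733 genes were called, 2648 by the adjusted p alone, 2582 by DESeq2's Wald test and 768 as single transcripts. Against 24 months 1947 were called and 446 as single transcripts, and leaving out a library gave 271 to 2199. Between the older ages the count was 0, against 2 without the filter and 167 without 24-month replicate 1. On the genes of the main fits, DESeq2's size factors moved the median of all genes to -0.10 (log2) at 12 months and -0.08 at 24 months. Upper-quartile factors moved it to -0.07 and -0.11. Under DESeq2's Wald test it was -0.22 and -0.18, but over 18722 and 18664 genes without the filter, so the gene set differed as well as the scaling. None of these settings turned a direction of the 10 genes.

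The replicate numbers did not pair the libraries: correlations of same-numbered deviations ranged from -0.166 to 0.323. With the replicate number as a block, all 10 genes were called at both ages (highest adjusted p = 0.0495 and 0.0132), 772 and 1712 genes were called in all, and 8 between the older ages, none of the 10.

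Directions that turned belonged to differences that were not called. Between 12 and 24 months CD1E changed to 0.073 with the block and to 0.80 without 12-month replicate 1 (range when leaving out a library -0.99 to 0.80). THEMIS changed to -0.014 with the block and was negative without 12-month replicate 1 or 2 or 24-month replicate 1 (range -0.58 to 0.61), and CD4 changed to -0.074 without 24-month replicate 3 (range -0.074 to 0.86). Among log2 ratios to CD3E, CD3G changed from 0.91 to -0.081 without 1-month replicate 2 (range -0.081 to 1.496), CD1E from -0.24 to 0.13 without 1-month replicate 1, CD8A from 0.67 to -0.65 and PTCRA from -1.18 to 3.30 with known transcripts only. For CD8A and PTCRA most 1-month counts lie on new transcripts, which that alternative leaves out. That alternative also brought the log2 ratios of CD8B and CD4 to CD8A from -2.26 and -1.86 to -0.95 and -0.54. The other causes were not tested. Depth limits PTCRA, CD8B and THEMIS in the older glands, where single libraries held 0 to 3 counts.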
